A study of Mus musculus with 6 samples.

Results

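The mitochondrial enzymes that feed and run the citrate cycle, and those that break fatty acids down by beta oxidation, were followed in mouse retina as 33 genes, 17 of the citrate cycle and pyruvate entry and 16 of beta oxidation. They were chosen by name, and each was read by its brightest probe set, the one with the highest mean log2 signal of those annotated to the gene. All 33 passed a filter on low signal and stood among 12536 genes tested. Retinas were taken at postnatal day 21 and hybridised to 6 Affymetrix expression arrays, 3 per group, each with RNA from 2 pooled retinas of mixed sex. The control mice were wildtype C57Bl/6, and the others were ERRβ -/- mice on a C57Bl/6 x Sv129 background, so that genotype and strain differ together. The comparison asks which retinal transcripts differ in level in mice targeted for ERRβ, an orphan nuclear receptor encoded by Esrrb. The labels do not say whether arrays shared animals beyond this pooling, and the p-values cover only how much these arrays varied.

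The citrate cycle oxidises acetyl units to carbon dioxide in the mitochondrial matrix and hands their electrons to the respiratory chain. Pyruvate enters it as acetyl-CoA through pyruvate dehydrogenase, or as oxaloacetate through pyruvate carboxylase. Fatty acids enter as acetyl-CoA after repeated rounds of beta oxidation, and electrons from the first reaction of a round pass through the electron transfer flavoprotein. Estrogen-related receptors are known to bind control regions of many genes of both pathways in heart and muscle, and photoreceptor inner segments are densely packed with mitochondria.

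The deposited signals had been scaled array by array to a trimmed mean of 500 in replicates 1 and 2 of both groups (here called the 500 set, 4 arrays) and of 150 in replicate 3 of both groups (the 150 set, 2 arrays). Signals are therefore compared only within a set, and log2 fold changes are labelled knockout minus wildtype from a limma fit with the set as a block, each given ± its standard error (SE, 3 arrays per group). Esrrb was not lower in the labelled knockout (3435 and 4012 against 2951 and 2934 in the 500 set, 2397 against 1771 in the 150 set). The sources used here do not place its probes relative to the deletion, and its signal does not check the labels. All 17 measured rod markers lay above the array median in every array. Cell type marker lists moved with the groups. The summed signal of 16 lens markers was 5434 to 6517 in wildtype and 63809 to 73263 in labelled knockout arrays of the 500 set, and 9986 against 51444 in the 150 set, and 15 of 16 were called higher. That of 17 markers of pigment epithelium and choroid was 57651 and 59106 against 66044 and 74862, and 4103 against 5127, with 4 of 16 tested called higher. The rod sum was 429773 and 429829 against 336061 and 364227, and 62921 against 59560, with 2 of 17 called lower and 1 higher. In such bulk RNA, fewer cells of a type and less RNA per cell cannot be told apart. The sum of 10 vessel and red cell markers was 3877 and 2854 against 5261 and 5094, and 907 against 1164. Of the 9 tested, 7 had a fold change above 0 and 2 below, and 1 was called higher. None of 13 Müller glia, 10 cone or 6 tested muscle markers was called. Of the 18 muscle markers, 13 lay below the array median in all 6 arrays. For comparison, 1.28% of all genes tested were called higher and 1.48% lower. The ratio of 3′ to 5′ signal of Actb, a measure of RNA quality, was 1.83 to 2.32 in wildtype and 1.66 to 1.82 in labelled knockout, while that of Gapdh overlapped (0.712 to 0.779 against 0.719 to 0.731). The part of these differences in the results below was not tested.

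No citrate cycle or beta oxidation member was called at an adjusted p of 0.05, against 1.28% of all genes tested called higher and 1.48% called lower by the same limma fit. Differences that were not called stood mostly on the higher side for beta oxidation. Of its 16 genes, 13 had a log2 fold change above 0, with a median of 0.20 (0.17 in the 500 set and 0.22 in the 150 set), where 53.1% of all genes lay above 0 with a median of 0.02. Of the 17 genes of the citrate cycle and pyruvate entry, 11 lay above 0, with a median of 0.06 (0.09 and -0.00 in the respective sets). At an unadjusted p of 0.05 in limma, 5 beta oxidation genes and 1 citrate cycle gene were higher and none was lower, against a background of 11.5% higher and 9.84% lower. Every labelled knockout array lay above every wildtype array of its own set for 7 of the 16 and 5 of the 17, against 19.8% of all genes, and below for 1 of the 16 and none of the 17, against 15.5%. Because these genes were chosen with earlier results known, the counts describe them and test nothing about either list.

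**Figure D1:**
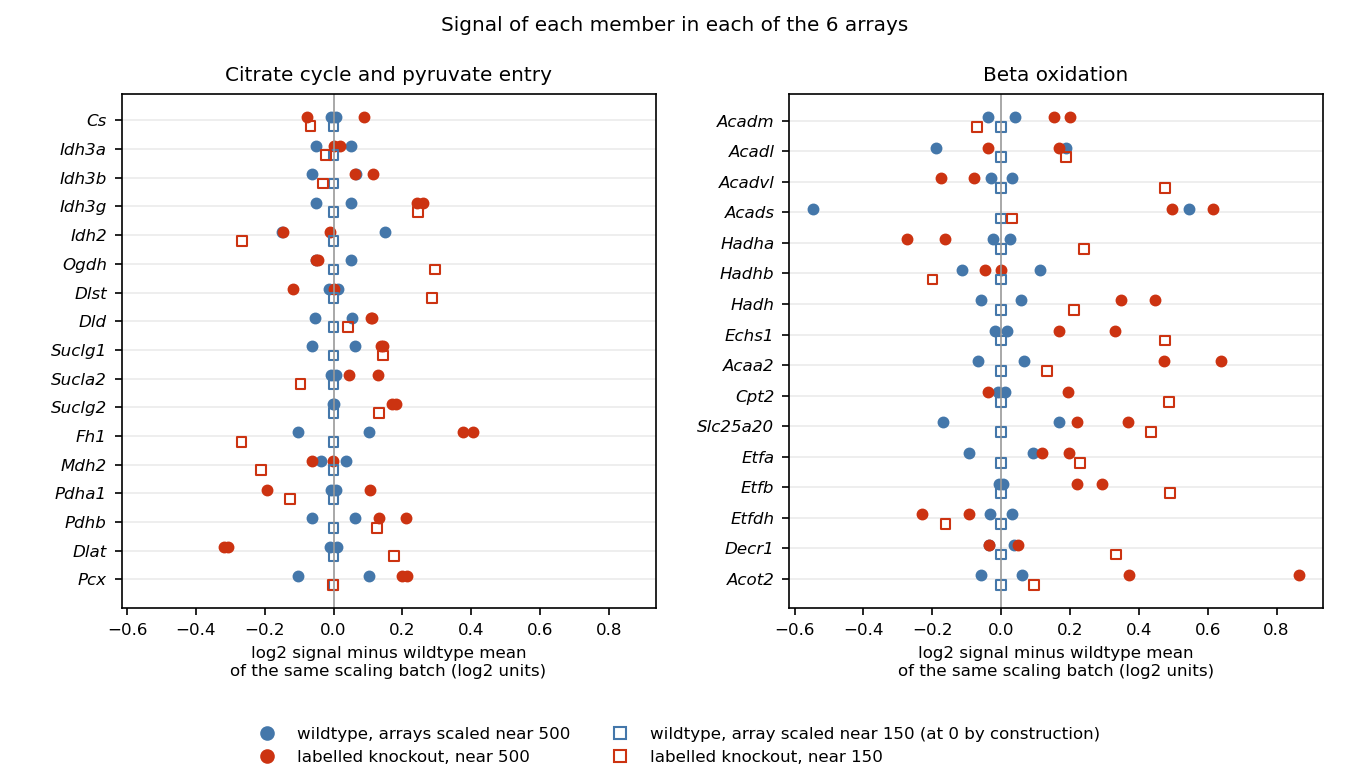
Log2 signal of each member in each array, as the difference from the wildtype mean of the same scaling set (x axis, log2 units), with filled circles for the 500 set and open squares for the 150 set. The wildtype array of the 150 set lies at 0 by construction, and labelled knockout arrays of Hadh, Echs1, Acaa2 and Etfb lie to the right of the wildtype arrays in both sets.

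Pyruvate entry showed no common direction. Pdhb, which encodes the β subunit of the E1 component of pyruvate dehydrogenase, had wildtype signals of 6116 and 6667 against 7001 and 7380 in the 500 set, and 869 against 949 in the 150 set. Its labelled knockout arrays were the higher ones in both sets, by 0.16 ± 0.073 (adjusted p = 0.268). Pdha1, the α subunit of the same component, had -0.07 ± 0.094 (adjusted p = 0.715), and its 4 arrays of the 500 set overlapped (2704 and 2678 against 2896 and 2353). Dlat, the E2 component that forms acetyl-CoA, had 1681 and 1704 in wildtype against 1369 and 1358 in labelled knockout. In the 150 set the order was the other way round, with 216 in wildtype and 244 in labelled knockout, and the fit over all arrays gave -0.15 ± 0.11 (adjusted p = 0.50). Dld, the E3 component shared with the oxoglutarate dehydrogenase complex, had 0.09 ± 0.079 (adjusted p = 0.574). Pcx, pyruvate carboxylase, which makes oxaloacetate directly from pyruvate, had 337 and 389 against 416 and 420 and was level in the 150 set at 155 in each group (0.14 ± 0.14, adjusted p = 0.615). The array carries 4 more Pcx probe sets among its controls, which were left out of the fit. Both labelled knockout arrays exceeded both wildtype arrays of the 500 set in 1 of them, and the 150 set was higher in labelled knockout in 3.

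Among the enzymes from citrate to oxoglutarate, Idh3g had the largest fold change by brightest probe sets, and its second set gave a smaller one. Idh3g encodes the γ subunit of the NAD-dependent isocitrate dehydrogenase, a regulatory subunit beside the catalytic α subunit of Idh3a. Its signals were 3486 and 3735 in wildtype against 4324 and 4271 in labelled knockout of the 500 set, and 462 and 547 in the 150 set. All labelled knockout arrays were higher than the wildtype arrays beside them, by near equal amounts in both sets (0.25 and 0.24). The fit gave 0.25 ± 0.074, with a 95% confidence interval of 0.08 to 0.42, and did not call it (unadjusted p = 0.00791, adjusted p = 0.111). Idh3a was level by its brightest set, with 6017 and 6450 against 6232 and 6309, and 878 against 866 (-0.00 ± 0.071, interval -0.16 to 0.16, adjusted p = 0.996). Idh3b, the β subunit, had 0.05 ± 0.075 (interval -0.12 to 0.22, adjusted p = 0.76). These intervals overlap that of Idh3g, and the difference between the subunits was not tested. The second set of Idh3g, nearly as bright at 3130 and 3300 in wildtype, had 0.12 ± 0.075 (adjusted p = 0.40), and the second set of Idh3b had 0.12 ± 0.079 (adjusted p = 0.428). In both of these sets, labelled knockout arrays were higher in the 500 and 150 sets alike. The other tested sets of Idh3a had -0.17 ± 0.083, -0.01 ± 0.11 and 0.21 ± 0.19 (adjusted p = 0.29, 0.974 and 0.57). In the first of them, labelled knockout arrays were lower in the 500 and 150 sets alike. Citrate synthase, encoded by Cs, makes the first product of the cycle and was also level, with 5299 and 5243 against 4999 and 5607, and 1018 against 972 (-0.02 ± 0.076, adjusted p = 0.918). Idh2, the mitochondrial NADP-dependent isocitrate dehydrogenase, had -0.14 ± 0.14 (adjusted p = 0.623).

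The later steps of the cycle held the member with the widest gap between the sets. Fh1, fumarase, had 2851 and 2470 in wildtype against 3441 and 3516 in labelled knockout of the 500 set, a difference of 0.39. The 150 set ran the opposite way, with 458 in wildtype and 380 in labelled knockout, a difference of -0.27. Over all arrays Fh1 had 0.17 ± 0.13 (adjusted p = 0.502). Of the 3 succinyl-CoA synthetase genes, Suclg1, the shared α subunit, had 3342 and 3646 against 3858 and 3840, and 501 against 553 (0.14 ± 0.076, adjusted p = 0.33). Suclg2, the β subunit of the GTP-forming enzyme, had 494 in both wildtype arrays against 560 and 555, and 131 against 144 (0.16 ± 0.12, adjusted p = 0.482). Both genes were higher in every labelled knockout array than in the wildtype arrays of the set. Sucla2, the β subunit of the ATP-forming enzyme, had 0.03 ± 0.078 (adjusted p = 0.882) and changed sign between the sets (0.09 and -0.10). The oxoglutarate dehydrogenase subunit genes Ogdh (E1) and Dlst (E2) had 0.07 ± 0.095 and 0.06 ± 0.10 (adjusted p = 0.74 and 0.803). By brightest sets they shared a pattern, lying at -0.05 and -0.06 in the 500 set and at 0.30 and 0.29 in the 150 set. The second Ogdh set held it (-0.52 and 0.50). Other tested Dlst sets did not, with 0.12 and 0.22 in one and -0.66 and -0.01 in another. Mdh2, malate dehydrogenase of the matrix, had -0.09 ± 0.072 (adjusted p = 0.515). By brightest probe sets, the 95% interval stayed within 0.5 log2 unit of 0 for all 17 genes of the citrate cycle and pyruvate entry. Intervals of some dimmer sets ran further, as in Suclg2 (0.14 to 1.20) and Sucla2 (-2.11 to -0.19).

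**Figure D2:**
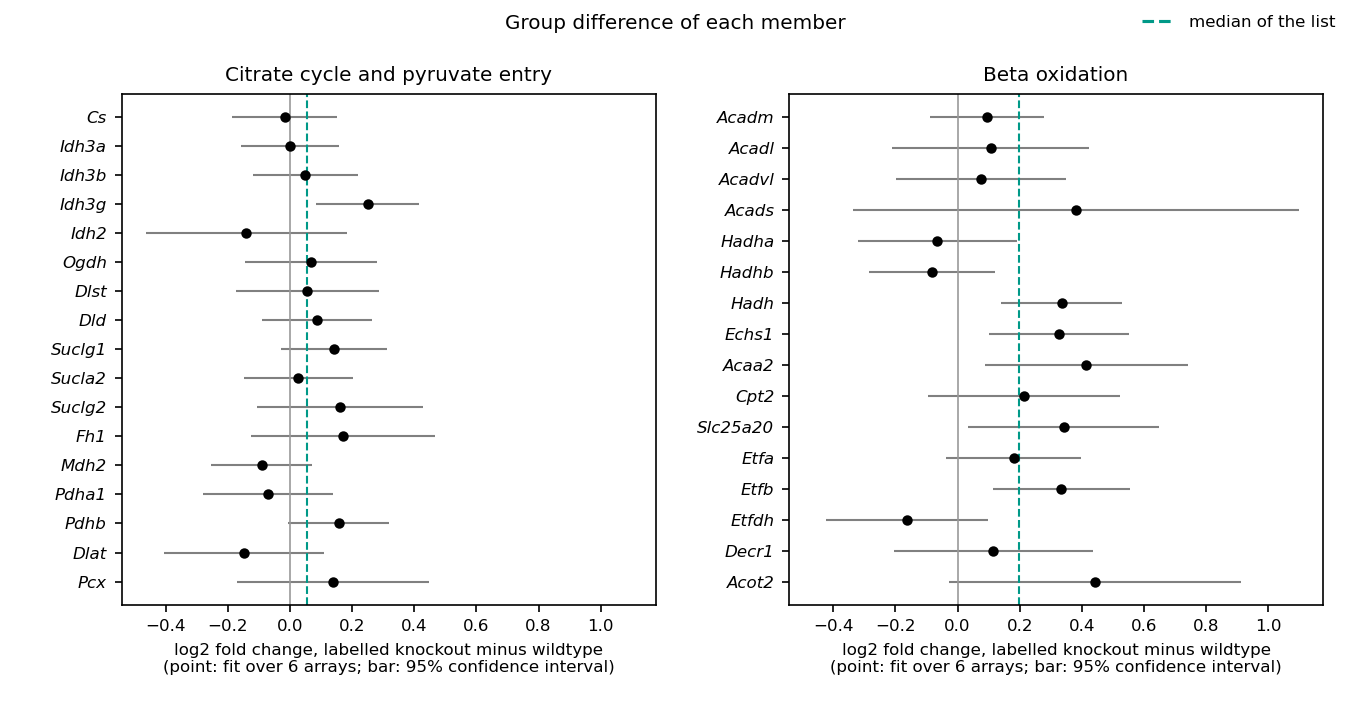
Log2 fold change of each member, labelled knockout minus wildtype (x axis), with its 95% confidence interval from the limma fit over 6 arrays (n = 3 per group). The dashed lines mark the list medians of 0.06 and 0.20, and the intervals of Idh3g, Hadh, Echs1, Acaa2, Slc25a20 and Etfb lie wholly above 0 before adjustment for 27022 probe sets.

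Fatty acids reach beta oxidation through the carnitine shuttle. Slc25a20, the carnitine-acylcarnitine translocase of the inner membrane, had 519 and 656 in wildtype against 681 and 753 in labelled knockout of the 500 set, and 92.2 and 125 in the 150 set. Labelled knockout arrays were higher throughout (0.34 ± 0.14, unadjusted p = 0.0327, adjusted p = 0.202). Cpt2, which regenerates acyl-CoA inside the matrix, had 505 and 498 against 488 and 574, so its groups overlapped in the 500 set, and 163 against 229 in the 150 set (0.21 ± 0.14, adjusted p = 0.415). Acot2, a matrix thioesterase that releases free fatty acid from acyl-CoA, had 199.8 and 217 against 379 and 269, and 68.7 against 73.4. This was the largest fold change of the 33, at 0.44 ± 0.21, and was not called (adjusted p = 0.272). Acot2 has close paralogs, and its probes may read their RNA too. The paralog Acot1 had -0.04 ± 0.29.

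The acyl-CoA dehydrogenases, which take the first step on chains of different length, had 95% intervals that held 0 in every case, and none was called. Acadm, for medium chains, had 3445 and 3262 in wildtype against 3851 and 3731 in labelled knockout, but 1031 against 981 in the 150 set (0.09 ± 0.082, adjusted p = 0.553). Acadvl, for very long chains, did the reverse, with 2421 and 2525 against 2339 and 2193, and 388 against 540. Its fold changes were -0.13 and 0.48 in the 500 and 150 sets, and 0.07 ± 0.12 over all arrays (adjusted p = 0.777). Acadl, for long chains, had 0.11 ± 0.14 (adjusted p = 0.717). Acads, for short chains, had 0.38 ± 0.32 (adjusted p = 0.541), with the largest error of the 33 genes. Its wildtype arrays in the 500 set read 94.0 and 200.2, on either side of array medians of 130 to 135, so a change of up to 1.10 log2 units lies within its interval.

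After this first step, the brightest sets of Echs1, Hadh and Acaa2, which encode separate matrix enzymes, were higher in every labelled knockout array but not called, and those of the membrane-bound complex and of Decr1 held no single order of groups in both sets. Echs1, short-chain enoyl-CoA hydratase, had 1360 and 1327 in wildtype against 1511 and 1688 in labelled knockout of the 500 set, and 162 and 226 in the 150 set. Labelled knockout was the higher in both sets (0.33 ± 0.10, interval 0.10 to 0.55, unadjusted p = 0.00954, adjusted p = 0.12). Hadh, the 3-hydroxyacyl-CoA dehydrogenase of the next step, had 1839 and 1992 against 2436 and 2611, and 466 against 539. Its groups did not overlap either, and its adjusted p was the lowest of the 33 genes (0.34 ± 0.087, interval 0.14 to 0.53, unadjusted p = 0.00351, adjusted p = 0.0792). Acaa2, the thiolase that releases acetyl-CoA, had 420 and 461 against 611 and 686, and 94.0 against 103. It too was higher in each labelled knockout array than in the wildtype arrays of its set (0.42 ± 0.15, interval 0.09 to 0.74, unadjusted p = 0.0184, adjusted p = 0.157). Hadha and Hadhb encode the α and β subunits of the trifunctional protein, which carries out these same steps on long chains at the inner membrane. Hadha had 1448 and 1499 against 1315 and 1220, but 248 against 293 in the 150 set (-0.07 ± 0.11, interval -0.32 to 0.19, adjusted p = 0.79). Hadhb had 2607 and 3047 against 2819 and 2728, and 567 against 494 (-0.08 ± 0.090, interval -0.28 to 0.12, adjusted p = 0.652). Neither subunit gene held one order of groups in both sets, and the difference from Echs1, Hadh and Acaa2 was not tested. Decr1, which prepares unsaturated chains for the cycle, had 0.12 ± 0.14 (adjusted p = 0.692). The other sets of Hadh (0.21 and 0.11) and the brightest Hadhb set with no cross-binding suffix (0.07) overlapped between groups in the 500 set. In these same arrays the lens marker sum was higher in each labelled knockout array by the amounts given above, and its part in these values was not tested.

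Electrons from the acyl-CoA dehydrogenases pass to the electron transfer flavoprotein, a dimer of Etfa and Etfb products, and from there to the dehydrogenase encoded by Etfdh, which reduces ubiquinone. Etfb had 1016 and 1009 in wildtype against 1179 and 1241 in labelled knockout of the 500 set, and 228 and 320.1 in the 150 set. The groups were apart in both sets, and the fit gave 0.33 ± 0.099 (interval 0.11 to 0.56, unadjusted p = 0.00746, adjusted p = 0.108). Etfa had 1299 and 1140 against 1321 and 1395, and 248 against 290.5, also higher in labelled knockout but with a narrower gap (0.18 ± 0.097, adjusted p = 0.328). Etfdh was the single member whose labelled knockout arrays all lay below, with 817 and 781 against 749 and 681, and 103 against 91.8. Its difference was -0.16 in each set and -0.16 ± 0.12 in the fit (interval -0.42 to 0.10, adjusted p = 0.468).

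The regions before the start sites of 30 of the 33 genes were taken from RefSeq promoter windows of GRCm38.p6 (250 bases before to 50 after the start), and Idh3a, Acaa2 and Decr1 were not matched. The extended half-site that estrogen-related receptors are known for, searched as TNAAGGTCA on both strands, was in none of 36 windows of these genes and in 1.28% of all 32851 windows. Its core AGGTCA, which any longer match also holds, was in 8 of the 36 windows (of Acadm, Acadvl, Echs1, Fh1, Idh3g, Ogdh, Pcx and Sucla2) and in 16.3% of all windows. These are matches of letters in a short window and say nothing on binding. Shown are the upstream bases of Echs1 and the stretch around the match in Idh3g, since these are the genes with a match and an unadjusted p under 0.05 in limma. Also shown are the 250 bases before the start of Hadhb, part of the region between Hadha and Hadhb. Hadha and Hadhb are transcribed away from each other from starts 273 bases apart. Capitals mark AGGTCA or its reverse complement, and each runs 5′ to 3′ on the strand of the gene named.
Echs1, chr7:140116422-140116671, minus strand, bases -250 to -1: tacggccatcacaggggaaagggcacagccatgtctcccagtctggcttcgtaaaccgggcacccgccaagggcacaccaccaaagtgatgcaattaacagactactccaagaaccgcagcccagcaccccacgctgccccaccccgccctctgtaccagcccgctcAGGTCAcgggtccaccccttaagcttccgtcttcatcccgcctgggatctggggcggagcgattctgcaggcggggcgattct
Idh3g, chrX:73786868-73786893, minus strand, bases 5 to 30 after the start: cttaatgtttTGACCTgtagaggtcc
Hadhb, chr5:30155003-30155252, plus strand, bases -250 to -1, no match: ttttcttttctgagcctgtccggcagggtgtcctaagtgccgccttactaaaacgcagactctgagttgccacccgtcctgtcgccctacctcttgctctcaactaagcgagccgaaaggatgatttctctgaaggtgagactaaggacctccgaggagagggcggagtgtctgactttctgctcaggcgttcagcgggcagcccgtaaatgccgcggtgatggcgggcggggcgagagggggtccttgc

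Other probe sets gave a second reading for 18 of the members. Of 67 member probe sets, 59 passed the filter and none was called (lowest adjusted p = 0.071, for a second Acaa2 set). The fold changes of all sets lay above 0 for 7 of the 18 genes, below 0 for 2 and on both sides for 9. The 3 sets of Acaa2 had 0.42, 0.67 and 0.74, and in each of them the labelled knockout arrays lay above the wildtype arrays of both scaling sets. Those of Suclg2 had 0.16 and 0.67, also with no overlap in either. The 3 sets of Dlat had -0.15, -0.12 and -0.33, and in the third, with an adjusted p of 0.103, labelled knockout was lower in both scaling sets. Hadh had 0.34, 0.21 and 0.11, while the second set of Slc25a20 had -0.00 against 0.34 for the brightest. Sucla2 and Hadhb had a dim set each with -1.15 and -0.75, far from their brightest sets at 0.03 and -0.08. The brightest sets of Dlat, Hadhb and Hadh have a suffix that marks probes able to bind other transcripts, and those of Idh3b, Suclg2 and Acaa2 one that marks probes shared with related transcripts.

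**Figure D3:**
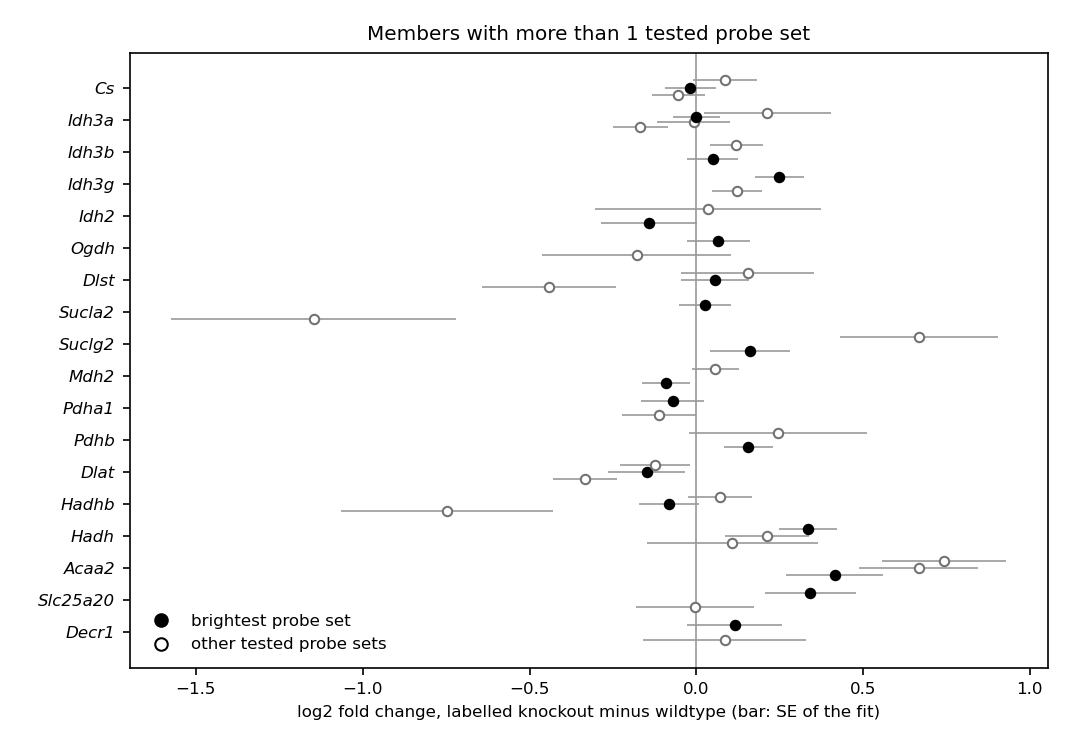
Log2 fold change with its SE (x axis, labelled knockout minus wildtype, n = 3 per group) of every tested probe set, for the 18 members with more than 1. Filled points mark the brightest set of each gene, and the sets of Acaa2 lie at 0.42, 0.67 and 0.74.

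Fold changes lay above 0 in both for 11 of 16 beta oxidation and 5 of 17 citrate cycle genes, and below 0 in both for 2 and 3. Over all genes tested, 31.0% lay above 0 in both sets and 25.5% below 0 in both. A test of the group difference between the sets in limma called no member (lowest adjusted p = 0.0859, for Acadvl, and 0.0862 for Fh1), against 1.17% of all genes. The 500 set alone, 2 arrays per group, called 5 members at an adjusted p of 0.05. These were Hadh (0.40, adjusted p = 0.0129), Fh1 (0.39, adjusted p = 0.0146), Acaa2 (0.56, adjusted p = 0.025) and Idh3g (0.25, adjusted p = 0.0471) on the higher side and Dlat (-0.31, adjusted p = 0.0391) on the lower, where 7.48% of all genes were called higher and 6.83% lower. Of these, Hadh, Acaa2 and Idh3g had the same direction in the 150 set (0.21, 0.13 and 0.24), and Fh1 and Dlat had the opposite one.

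**Figure D4:**
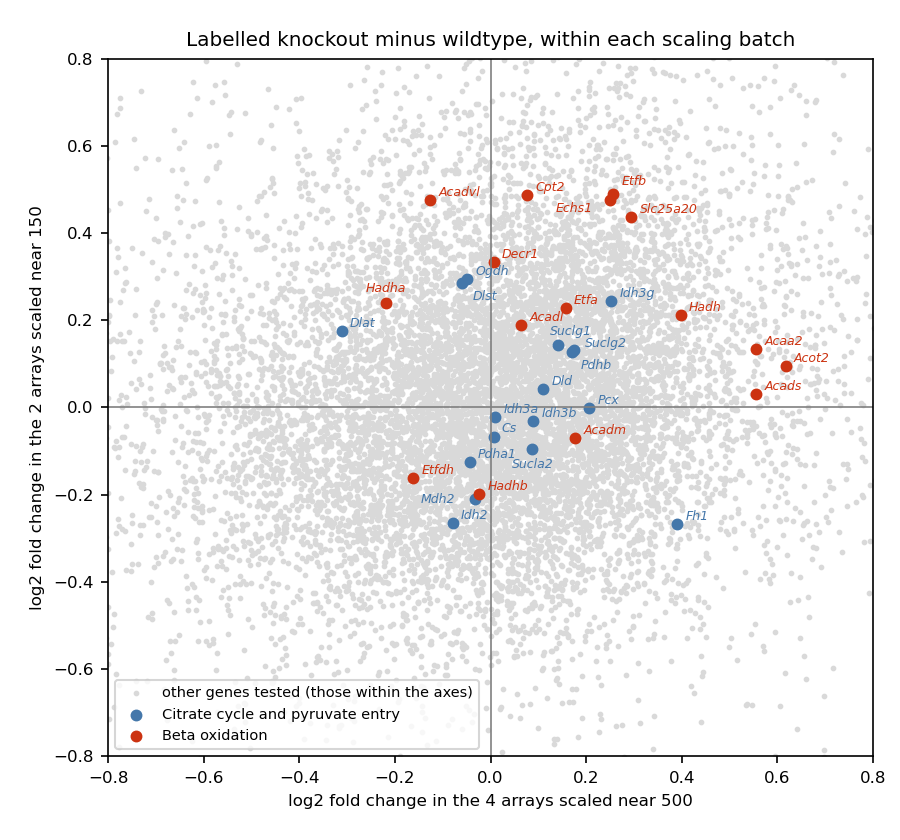
Log2 fold change of each gene in the 4 arrays scaled near 500 (x axis) against that in the 2 arrays scaled near 150 (y axis), with members named and other tested genes within the axes in grey. Of 16 beta oxidation genes 11 lie in the upper right, where both sets are higher in labelled knockout, and Fh1 and Dlat lie where the sets disagree.

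Further genes of both pathways came from lists of 68 names, of which 61 were matched to the array by that name or a synonym. Among 27 tested genes of the citrate cycle and pyruvate supply, Me1 was called higher and none lower, beside a median of 0.07. Of all genes tested, 1.28% were called higher and 1.48% lower. Me1, the cytosolic malic enzyme, turns malate into pyruvate with the gain of NADPH. It had 2038 and 2042 in wildtype against 3931 and 3720 in labelled knockout of the 500 set, and 425 and 629 in the 150 set. That is 1.73-fold over all arrays (0.79 ± 0.092, adjusted p = 0.00359, and 0.0169 with a replicate block), and a second Me1 set had 0.80 (adjusted p = 0.0601). The second set had 1.17 in the 500 set but 0.07 in the 150 set, where the brightest had 0.91 and 0.57. For the second set the difference between the scaling sets had an adjusted p of 0.0111 in limma. Me1 was not called without wildtype replicate 2 (adjusted p = 0.0547), with no variance trend (0.167) or with no block for the scaling set (1). Of the pyruvate dehydrogenase kinase genes, whose products switch the enzyme off, Pdk3 had 705 and 651 against 807 and 821, and 97.2 against 161 (0.42 ± 0.13, adjusted p = 0.126). Pdk1 and Pdk2 had -0.14 ± 0.11 and 0.05 ± 0.12, and Pdk4 fell under the filter, with signals of 1.23 to 38.9.

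Among 32 tested further genes of fatty acid, ketone body and related acyl-CoA breakdown, none was called higher and 2 were called lower, beside a median of 0.04. The shares over all genes were 1.28% higher and 1.48% lower. Ivd, isovaleryl-CoA dehydrogenase of leucine breakdown, a relative of the acyl-CoA dehydrogenases, had 1603 and 1339 in wildtype against 629 and 561 in labelled knockout, and 503 against 429 (-0.95 ± 0.20, adjusted p = 0.0429). Its difference was larger in the 500 set (-1.30) than in the 150 set (-0.23), with an adjusted p of 0.0448 for the difference between the sets, and a second set had -0.26. Acsl3, which activates long-chain fatty acids to acyl-CoA, had 7103 and 7956 against 5899 and 5932, and 1832 against 1463 (-0.34 ± 0.073, adjusted p = 0.0496). With a replicate block neither passed (adjusted p = 0.0845 for Ivd and 0.109 for Acsl3), nor without any 1 of the 4 arrays of the 500 set (adjusted p of 0.171 to 0.23 for Ivd and 0.15 to 0.272 for Acsl3). Cpt1a and Cpt1c, isoforms of the enzyme that loads fatty acids onto carnitine outside the matrix, had 0.09 ± 0.085 and -0.01 ± 0.096 (adjusted p = 0.572 and 0.963). Cpt1b was not analysed here.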

How the data were processed

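Total RNA was amplified once with an oligo dT primer and labelled with biotin, per the labels' protocols. The deposited values are intensities on a linear scale, 1 per probe set and array, and GCOS 1.4 and MAS5 are named in the submitters' processing notes with no role or order. Of 45101 probe sets, 64 controls were left out. Signals were turned to log2 with no further normalization, and 27022 probe sets at or above the 40th percentile of mean log2 signal (geometric mean 54.5) were kept. Scaling sets were found from the mean signal after trimming 2% at each end. Arrays of one set correlated at 0.953 to 0.978 in log2 signal, and arrays of different sets at 0.799 to 0.864. Groups were compared with limma 3.58.1 in R 4.3.3 (two-sided moderated test, trended variance in eBayes, the scaling set as a block), with Benjamini-Hochberg adjustment over all kept probe sets. The procedure was run on simulated data with noise drawn from the fitted model. The planted changes were larger than any fitted for the brightest probe set of a member, so recovery of changes of that size was not tested. Gene names came from the platform's annotation, in which 34945 probe sets had 1 symbol, 932 several and 9160 none. With 3 arrays in each group, precision is set by that number.

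The members and gene lists were chosen with earlier results of these data known. All members are given. Values in every array are given for the 4 members of each list with the lowest p, for those past the test, and for those whose groups did not overlap with a change of at least 0.3, and a few more were added after their values were seen. Of the other genes, those past the test and fixed isoforms of PDK and CPT1 are named.

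Same-numbered arrays deviated together from their group means (correlations of 0.57, 0.67 and 0.843 for numbers 1, 2 and 3). These deviations hold the difference between the scaling sets, which same-numbered arrays share, so they cannot show a pairing by number. Within the 500 set alone the correlation for number 1 was 0.0153, which shows no pairing there. Alternatives were the replicate block, no block, other filters, normalizations and probe set choices, an added constant of 16, no variance trend, the 500 set alone and leaving out each array.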

Additional observations from a re-analysis of the deposited data

How the results depend on the processing

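Of 41 named genes, 33 of them members, the 3 called genes (Me1, Ivd and Acsl3) were all lost with no block for the scaling set and with no variance trend. A replicate block changed no other call than those of Ivd and Acsl3 and left each list's count at 0. The list medians of 0.0557 and 0.1975 cannot change with the choice of block. Each scaling set and each replicate number holds as many wildtype as labelled knockout arrays, so the fold changes stay the same. Ivd and Acsl3 were also lost with no filter on low signal and with the mean over kept probe sets, Ivd with quantile normalization, and Acsl3 with centring on the median and with the brightest set without a cross-binding suffix. Counts of called members moved from 0 to 3 (citrate cycle and pyruvate entry) and 2 (beta oxidation) in the 500 set alone, and to 1 for beta oxidation (Acaa2, adjusted p = 0.0432 in limma) with the mean over kept probe sets. Leaving out 1 array at a time gave 0 to 2 called members in each list, the 2 only without replicate 3 of either group. Over these the beta oxidation median ran from 0.1674 to 0.2367 and the citrate cycle median from 0.0503 to 0.0875, the latter without replicate 3 of either group. Leaving out replicate 3 of either group leaves the other array of the 150 set without a partner. The fold changes are then those of the 500 set alone and are no separate check. The share of all genes called was not computed when single arrays were left out, nor with the mean over kept probe sets. With that mean, p was adjusted over 1 value per gene and not over all kept probe sets. The citrate cycle median was 0.009 with the mean over kept probe sets. A test of the difference between the scaling sets called 1 member (Acadvl, adjusted p = 0.0356) with quantile normalization, an alternative chosen after the data were seen, and none in its 3 other alternatives. Signs reversed, in no case with a call, as follows. With the mean over kept probe sets the values were 0.0047 for Cs, 0.009 for Idh3a, -0.0559 for Ogdh, -0.0775 for Dlst and -0.5604 for Sucla2. In the 500 set alone they were 0.0064 for Cs, 0.0094 for Idh3a, -0.0485 for Ogdh, -0.0592 for Dlst, -0.1266 for Acadvl and -0.0274 for Pdk2. Centring arrays on the median gave 0.0056 for Idh3a, quantile normalization -0.006 for Sucla2, and the brightest set without a cross-binding suffix 0.0703 for Hadhb. Leaving out 1 array gave -0.0723 to 0.0223 for Cs, -0.0324 to 0.0249 for Idh3a, -0.0485 to 0.1285 for Ogdh, -0.0592 to 0.1228 for Dlst, -0.0149 to 0.0875 for Sucla2, -0.1644 to 0.0067 for Pdha1, -0.1266 to 0.1579 for Acadvl, -0.2182 to 0.009 for Hadha, -0.0274 to 0.1323 for Pdk2 and -0.0331 to 0.0147 for Cpt1c. The cause was not tested. The 60th percentile filter removed Acads. Signals of Acads and Acot2 were low, and the 150 set, scaled to a lower mean, holds only 2 arrays. The part of this in the results was not tested.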

Other observations

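Genes of ketone body use, singled out after their values were seen, gave values that differed from gene to gene and between the scaling sets. Oxct1, which activates acetoacetate, had 5215 and 5478 in wildtype against 7654 and 7608 in labelled knockout of the 500 set, and 627 against 637 in the 150 set (0.35 ± 0.10 over all arrays, adjusted p = 0.107 in limma, and 0.0956 for the difference between the sets). Acat1, the thiolase that follows it, had 2370 and 2320 against 3363 and 3640, but 667 against 558 (0.30 ± 0.15, adjusted p = 0.298), and its group difference itself differed between the sets (adjusted p = 0.0241). Bdh1, which interconverts the ketone bodies, had 1406 and 1805 against 1466 and 1732, and 214 against 200.5 (-0.03 ± 0.12, adjusted p = 0.911).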
